A study of Homo sapiens with 6 samples.

Results

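The guanylate-binding proteins GBP1, GBP2, GBP3, GBP4 and GBP5, the paralogs SAMD9 and SAMD9L, and the ubiquitin ligase RNF213 are 8 genes of the 27887 rows in an expression table from cells depleted of the chromatin protein HMGB2. They were found in the table by their gene symbols. They had been chosen from the measured values themselves, since earlier results from these libraries were known, so their difference between the groups is given below as a description. Calls and adjusted p-values printed for them come from the fit over all genes and are not independent evidence of that difference.

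The cells were KYSE450, a long-established line from a human squamous carcinoma of the esophagus, profiled by bulk RNA-seq in 2 groups of 3 libraries. The mock group held wild-type cells exposed to a mock virus, and the shHMGB2 group held HMGB2 knockdown cells made with a virus that delivers a short hairpin RNA against HMGB2; the sources used here do not say whether the mock virus held a hairpin or how many hairpins were used. The series text states a search for regulators of cholesterol metabolism as its purpose. No label ties the 3 libraries of either group to separate cultures, so each p-value below rests on library-to-library spread that may be technical.

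GBPs are large GTPases of the dynamin superfamily that interferons induce strongly. They assemble on the vacuoles and surfaces of intracellular bacteria and parasites, break these open and help bring lipopolysaccharide to caspase-4. SAMD9 and SAMD9L are neighbouring interferon-induced genes whose products block poxvirus replication and shut down protein synthesis, and activating mutations in them cause bone marrow failure. RNF213 is a giant protein that joins an AAA ATPase motor to a ubiquitin ligase; it puts ubiquitin on the lipopolysaccharide of cytosolic bacteria, sits on lipid droplets, and is the main susceptibility gene of moyamoya disease, a narrowing of brain arteries.

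The 8 genes lie in 3 places in the genome (RefSeq gene table, GRCh38.p14). The 5 GBP genes of the 8 lie within 266 kb of chromosome 1 in the order GBP3 (chr1:89006680-89022866), GBP1 (chr1:89052319-89065208), GBP2 (chr1:89106132-89126114), GBP4 (chr1:89181144-89198942) and GBP5 (chr1:89256189-89272860). GBP7 (chr1:89131742-89176003), which is not among the 8, lies between GBP2 and GBP4. SAMD9 (chr7:93099518-93117979) and SAMD9L (chr7:93130056-93148385) are side by side within 48.9 kb of chromosome 7, and RNF213 takes up 138 kb of chromosome 17 (chr17:80260852-80398794). All 8 are protein-coding genes.

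Promoter sequence was not used to choose these genes, and RefSeq windows of 300 bases (250 before the start site and 50 from it on, GRCh38.p14) were held for 6 of the 8. GBP2 and GBP5 were not among them. A pair of short patterns was searched on both strands: the core of the interferon-stimulated response element, which is GAAA and GAAA set apart by 2 bases of any kind, and the core of the gamma-activated site, TTCNNNGAA, which reads the same on both strands. The first was present in the windows of GBP1, GBP3, GBP4 and SAMD9, and in 1255 of 35116 promoter windows of the same length (3.57%). The second was present in GBP3 alone among the 6, and in 2689 of all windows (7.66%). The windows of GBP6 and GBP7, which are not among the 8, were also searched and held neither pattern. Looser forms of the gamma-activated site were not searched, so a window without a match, such as that of GBP1, may hold such a form. The stretches below show these letters in their setting, and all 5 genes are on the minus strand. Sequences run 5′ to 3′ along the gene, and capitals mark the letters found. SAMD9L held neither pattern, and its capitals mark the closest stretch to the letters of GBP1, described below.

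GBP1 at chr1:89065286-89065375: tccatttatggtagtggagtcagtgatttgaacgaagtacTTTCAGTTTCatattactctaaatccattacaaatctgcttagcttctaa

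GBP3 at chr1:89022847-89022921: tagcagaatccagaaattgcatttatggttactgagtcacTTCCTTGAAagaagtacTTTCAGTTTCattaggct

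GBP4 at chr1:89198923-89198986: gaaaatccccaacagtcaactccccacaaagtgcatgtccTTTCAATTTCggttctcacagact

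SAMD9 at chr7:93118066-93118155: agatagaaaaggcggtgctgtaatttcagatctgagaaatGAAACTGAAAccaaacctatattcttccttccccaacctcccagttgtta

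SAMD9L at chr7:93148384-93148473: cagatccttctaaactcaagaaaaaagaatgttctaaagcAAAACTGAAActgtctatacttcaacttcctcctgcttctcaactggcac

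Counted from the first transcribed base as 0, the response element letters begin at -127 in GBP1, at 2 in GBP3, at -4 in GBP4 and at -136 in SAMD9, and the gamma-activated letters of GBP3 begin at -15. The 10 letters of GBP1, TTTCAGTTTC, are GAAACTGAAA on the opposite strand. In that exact form they also stood in GBP3 and SAMD9, and in 93 of the 35116 windows (0.265%). This second search was added after the first matches had been seen. GBP4 and SAMD9L (at -48, in capitals above) each differ from it at 1 base, and 1295 of all windows (3.69%) held it with at most 1 difference, while the closest stretch in RNF213 differs at 6 bases. GBP1 and GBP3 share an unbroken run of 19 bases across these letters, GAAGTACTTTCAGTTTCAT. A match describes the letters only, and a window without one says only that these letters are not in it.

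Before turning to the genes, the labels were checked. HMGB2 stood at 116, 111 and 109 FPKM (fragments scaled to transcript length and library total) in mock replicates 1, 2 and 3, and at 22.1, 24.4 and 27.8 FPKM in shHMGB2 replicates 1, 2 and 3, a log2 fold change of -2.14 (limma, adjusted p = 0.000113). All 10 squamous epithelial markers were detected, KRT5 at a mean of 3380 FPKM in mock, while the leukocyte marker PTPRC did not exceed 0.03 FPKM. Summed FPKM ran from 740684 to 829437, and log2 profiles correlated at 0.985 to 0.989 within groups and at 0.978 to 0.987 between them. Read counts per library are not given. If the authors' group values are means of reads scaled by library size, and the most common value among genes detected in a single library is 1 read, the deepest library (shHMGB2 replicate 1) had 1.88 times the depth of the shallowest (shHMGB2 replicate 3).

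In mock cells the 8 genes spanned more than 3 orders of magnitude in FPKM, a scale that is per transcript length and so allows levels to be set side by side. SAMD9 was highest at 46.0 ± 9.87 FPKM (SD, n = 3, as for all values in this form), above 92.2% of all rows. RNF213 (10.7 ± 2.03 FPKM) and GBP1 (10.6 ± 1.11 FPKM) followed and overlapped each other. GBP3 (5.38 ± 0.645 FPKM) came next, then GBP2 (4.27 ± 0.164 FPKM) and SAMD9L (3.90 ± 0.901 FPKM). The SAMD9L libraries (2.93 to 4.71 FPKM) overlapped those of GBP2, and the highest was also above the lowest of GBP3 (4.64 FPKM). GBP5 stood at 2.07 ± 0.325 FPKM and GBP4 near the floor. In shHMGB2 cells SAMD9 was again highest, and GBP1 and RNF213 overlapped each other again. SAMD9L had moved from the sixth place to the fourth, where its libraries again overlapped those of GBP3.

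**Figure D1:**
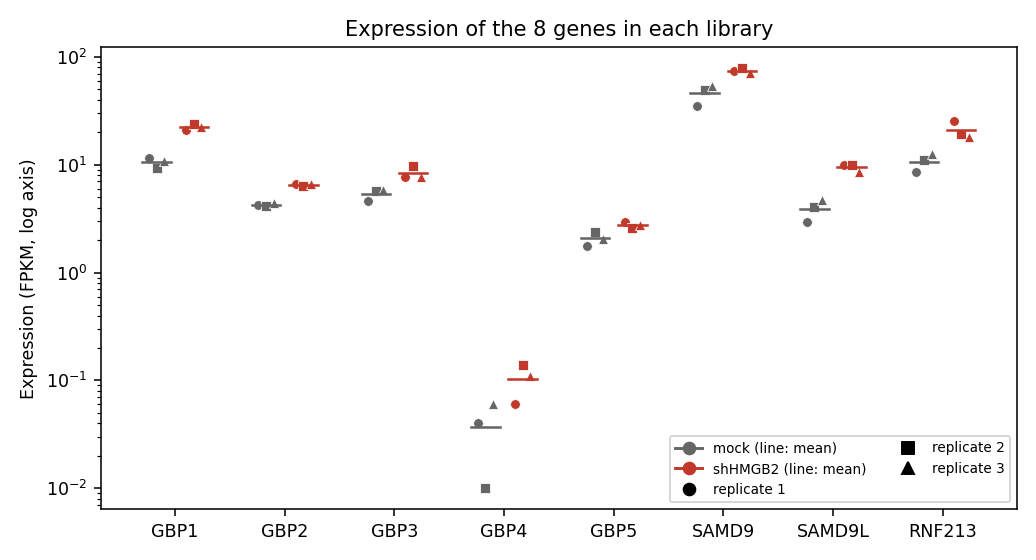
Expression of each of the 8 genes (FPKM, log axis) in the 3 mock libraries (grey) and the 3 shHMGB2 libraries (red), with marker shape for the replicate and a line at the group mean. In 7 genes every shHMGB2 point lies above every mock point, while the points of GBP4, all at 0.14 FPKM or below, meet at 0.06 FPKM.

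Of the 7 genes that averaged 1 FPKM or more across the 6 libraries, 6 were called higher in shHMGB2 cells at an adjusted p under 0.05 and 0 lower. Of all 13409 genes tested, 3.30% were called higher and 3.45% lower. In all 7, each shHMGB2 library was above each mock library, which was the case for 21.6% of the genes tested. The median log2 fold change of the 7 was 0.70, beside 0.04 for all genes tested. Since this same contrast led to the choice of the genes, nothing is read from these counts. GBP4 fell under the expression minimum and GBP5 was tested but not called. In bulk RNA, a rise in every cell and a larger share of expressing cells cannot be told apart.

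GBP1, the best studied GBP, which forms the first coat on cytosolic bacteria, stood at 11.6, 9.39 and 10.8 FPKM in mock replicates 1 to 3 and at 21.1, 23.8 and 22.2 FPKM in shHMGB2 replicates 1 to 3. The lowest shHMGB2 library was 1.82 times the highest mock library. The group mean went from 10.6 ± 1.11 to 22.4 ± 1.37 FPKM, a 2.11-fold difference and a log2 fold change of 1.01 (SE 0.087) on the scale of log2(FPKM + 1), the scale of all log2 values here. GBP1 contributed 43.4% to 52.1% of the summed FPKM of the 5 GBPs in the mock libraries and 54.9% to 56.3% in the shHMGB2 libraries. That sum was 22.2, 21.6 and 23.2 FPKM in mock and 38.4, 42.7 and 39.4 FPKM in shHMGB2 replicates 1, 2 and 3.

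GBP2, which like GBP1 and GBP5 ends in a lipid anchor motif and which with GBP5 lowers furin activity against viral envelope proteins, was the least variable of the 8. Its mock libraries stood at 4.21, 4.15 and 4.46 FPKM and its shHMGB2 libraries at 6.6, 6.41 and 6.58 FPKM. The groups were well apart although the difference of the means was only 1.53-fold, with a log2 fold change of 0.51 (SE 0.0659).

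GBP3, which joins the coat that GBP1 starts, stood at 4.64, 5.68 and 5.82 FPKM in mock and at 7.75, 9.81 and 7.75 FPKM in shHMGB2 replicates 1, 2 and 3. The groups did not overlap, yet the spread was wider than in GBP2, with mock replicate 1 low and shHMGB2 replicate 2 high. The fold of the means was 1.57 and the log2 fold change 0.56 (SE 0.115). The call of GBP3 was lost without mock replicate 1, mock replicate 2 or any single shHMGB2 library (adjusted p from 0.0595 to 0.0966, limma).

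GBP5, which has been linked to inflammasome assembly and inhibits furin, stood at 1.75, 2.40 and 2.07 FPKM in mock and at 2.92, 2.58 and 2.76 FPKM in shHMGB2 replicates 1, 2 and 3. The groups came close, with shHMGB2 replicate 2 just above mock replicate 2. The fold of the means was 1.33, the log2 fold change 0.29 (SE 0.102), and the gene was not called. GBP4, a suppressor of virus-induced interferon signalling, was listed at 0.04, 0.01 and 0.06 FPKM in mock and at 0.06, 0.14 and 0.11 FPKM in shHMGB2. The groups met at 0.06 FPKM and no fold change was fitted. On the scale of the authors' group values, where the most common value of a gene detected in a single library is 0.166 to 0.312, the authors' deposited table lists GBP4 at 5.06 in mock and 14.3 in shHMGB2.

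Some GBP genes share stretches of sequence, which bears on how reads are divided among them. Of all 50-base stretches of its GENCODE 29 transcripts, GBP1 shared 9.62% with another gene read in the same direction. Most of these were shared with the pseudogene GBP1P1 (6.6%) and with GBP3 (3.4%). GBP2 shared 10.2%, mostly with GBP7 (9.15%), and GBP3 shared 4.76%, mostly with GBP1 (3.7%). GBP7 had no row of its own, so its level cannot be set beside that of GBP2. GBP4 shared 4.03%, mostly with genes outside the family such as CASP10 (0.91%), with 0.309% in common with GBP7. The 0.396% that GBP5 shared was all with genes outside the family. Read in the opposite direction, GBP4 shared 4.01% and GBP5 3.05%, the latter mostly with AC099063.1 (2.73%). In that direction GBP1, GBP2 and GBP3 shared 0%. GBP1P1 was listed at 1.42, 1.89 and 1.96 FPKM in mock and at 2.22, 2.78 and 3.05 FPKM in shHMGB2, without a call (limma, adjusted p = 0.0858). It was far below GBP1 in each library, and how much of either value comes from the other was not tested.

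SAMD9, the most abundant of the 8, stood at 35, 49.0 and 54.0 FPKM in mock replicates 1, 2 and 3 and at 73.4, 78.2 and 70.4 FPKM in shHMGB2. The 3 shHMGB2 libraries were close together and mock replicate 1 was low. The mean went from 46.0 ± 9.87 to 74.0 ± 3.98 FPKM, 1.61-fold, with a log2 fold change of 0.70 (SE 0.148). The call was lost without mock replicate 2 or any single shHMGB2 library (adjusted p from 0.0845 to 0.119, limma).

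SAMD9L, whose product degrades a phenylalanine tRNA when it is active, showed the largest fold of the 7 genes tested. Its mock libraries stood at 2.93, 4.06 and 4.71 FPKM and its shHMGB2 libraries at 9.94, 9.90 and 8.62 FPKM. No library of one group came near the other, and the lowest value was again in mock replicate 1. The mean went from 3.90 ± 0.901 to 9.49 ± 0.751 FPKM, 2.43-fold, with a log2 fold change of 1.11 (SE 0.139). The ratio of SAMD9 to SAMD9L in FPKM was 11.9, 12.1 and 11.5 in mock and 7.39, 7.90 and 8.16 in shHMGB2 replicates 1, 2 and 3, so the paralogs moved by unequal factors. No 50-base stretch of either was shared with another gene (0%).

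RNF213 stood at 8.50, 11.1 and 12.5 FPKM in mock and at 25.3, 19.3 and 18.1 FPKM in shHMGB2 replicates 1, 2 and 3. The groups did not overlap, with mock replicate 1 the lowest and shHMGB2 replicate 1 the highest. The mean went from 10.7 ± 2.03 to 20.9 ± 3.88 FPKM, 1.95-fold, with a log2 fold change of 0.91 (SE 0.16). The call was lost without mock replicate 2, shHMGB2 replicate 1 or shHMGB2 replicate 2 (adjusted p from 0.0611 to 0.065, limma). The antisense gene RNF213-AS1 was listed at 0.04 to 0.39 FPKM over the 6 libraries.

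The authors' deposited table gives its own fold changes, made from group values that are not FPKM. By an adjusted p under 0.05 there, 6 of the 8 genes were higher, beside 6.13% of the genes with an adjusted p in the authors' deposited table. The log2 fold changes in the authors' deposited table were 1.24 for SAMD9L, 1.01 for GBP1, 0.91 for RNF213, 0.63 for SAMD9, 0.62 for GBP3, 0.56 for GBP2 and 0.37 for GBP5. The order of the 7 genes was that of the fit to FPKM, which rests on the same libraries.

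**Figure D2:**
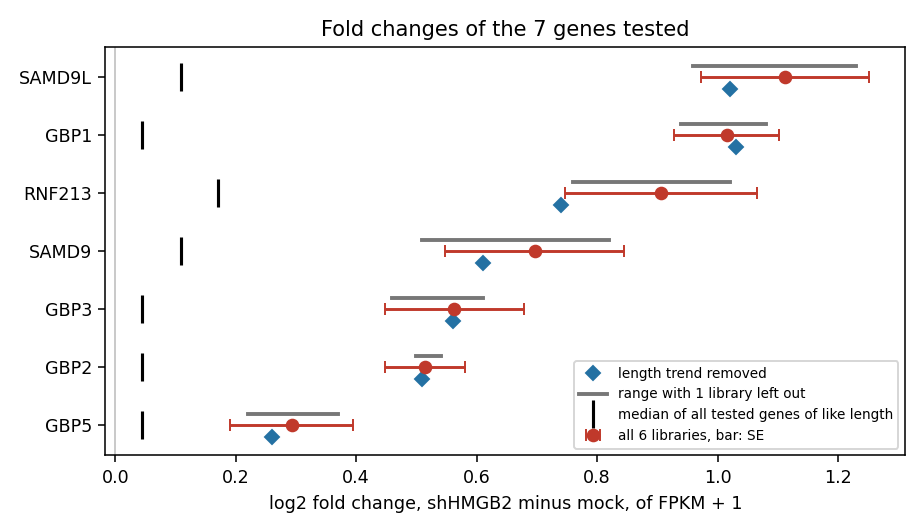
Log2 fold change (shHMGB2 minus mock, of FPKM + 1) of the 7 genes tested, with the SE as a red bar, the range with 1 library left out in grey, the value after the length trend was removed in blue, and the median of all tested genes of like length as a black mark. SAMD9L (1.11) and GBP1 (1.01) lie farthest right, and RNF213 moves most when the length trend is removed, from 0.91 to 0.74.

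Transcript length went with the libraries' differences in the medians of all tested genes. Among the 7 tested members, the deviation in mock replicate 1 was not largest in RNF213, the longest. Over all tested genes with a known length (11255 of 13409, 83.9%), the median log2 fold change was -0.086 for transcripts under 1500 bases, 0.044 from 3000 to 5000 bases, 0.109 from 5000 to 8000 bases and 0.17 from 8000 bases on. GBP1 (3035 bases), GBP2 (3687), GBP3 (3678) and GBP5 (4699) are in the second of these ranges, SAMD9 (6852) and SAMD9L (7134) in the next, and RNF213 (21055 bases) in the last. Genes of 5000 to 8000 bases deviated from their group mean by a median of -0.096 in mock replicate 1 and 0.068 in mock replicate 3. For genes of 8000 bases or more the medians were -0.15 and 0.116. SAMD9 deviated by -0.36 and 0.25, SAMD9L by -0.30 and 0.24, and RNF213 by -0.28 and 0.22 in the same 2 libraries. GBP1 did not share this pattern, at 0.12 and 0.03, and GBP2 stood at -0.02 and 0.05. GBP3, at -0.17 and 0.10, and GBP5, at -0.15 and 0.00, were also low in mock replicate 1. The medians of all tested genes of 3000 to 5000 bases were -0.032 and 0.018.

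With a trend on log transcript length removed from each library, an alternative added after seeing the data, the log2 fold change was 0.74 for RNF213, 0.61 for SAMD9 and 1.02 for SAMD9L. For GBP1 it was 1.03, for GBP2 0.51, for GBP3 0.56 and for GBP5 0.26. The same 6 genes were called. The part of length in these differences was not tested further.

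**Figure D3:**
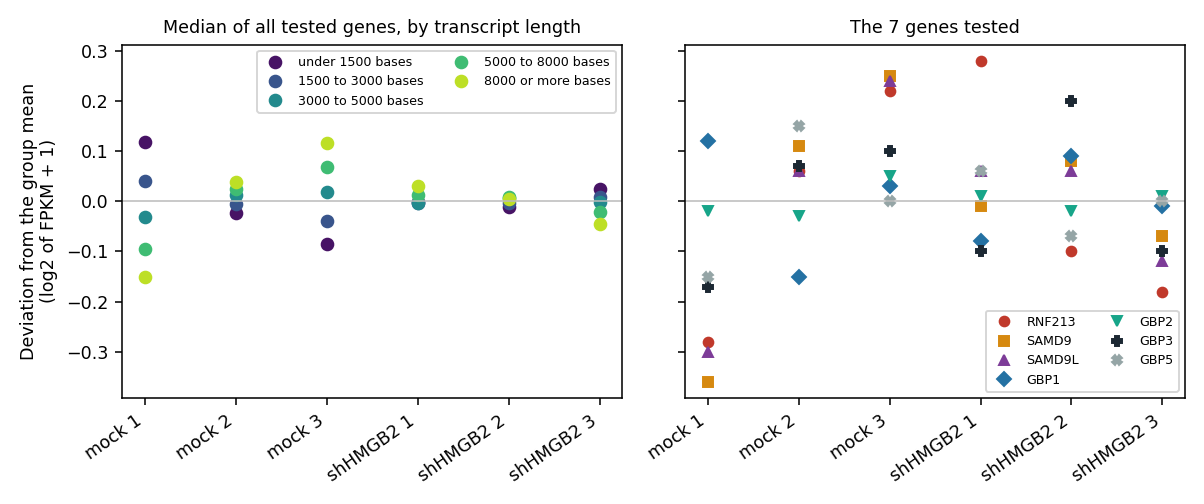
Deviation of each library from its group mean (log2 of FPKM + 1), left as the median of all tested genes in 5 ranges of transcript length and right for the 7 genes tested. In mock replicate 1 the medians fall in order from 0.117 for transcripts under 1500 bases to -0.15 for those of 8000 bases or more, and SAMD9, SAMD9L and RNF213 lie lowest there.

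The genes that flank the 3 loci were not part of the choice. Of the 38 genes among the nearest 5 on each side of the loci or between the members, 26 had a row, 12 were tested, 1 was called higher and 1 lower. The one that rose was GBP6, a further member of the GBP cluster which stood above all 5 GBPs described here in group mean, from 22.4 ± 1.95 to 29.1 ± 1.68 FPKM (log2 fold change 0.36, limma adjusted p = 0.04). Its call was lost without mock replicate 1, mock replicate 2 or any single shHMGB2 library (adjusted p from 0.0576 to 0.137). The one that fell was CDK6, the cell cycle kinase gene near SAMD9, from 44.3 ± 8.94 to 27.4 ± 0.78 FPKM (log2 fold change -0.65, limma adjusted p = 0.0344), a call lost in 5 of the 6 fits that left out 1 library (adjusted p from 0.0508 to 0.113), all but the one without mock replicate 1. Of the 5 tested genes around RNF213, 0 were called by limma and 0 had an unadjusted p under 0.05.

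Other genes were grouped by their tie to the work of the 8. These lists were drawn up with earlier results known, so their counts are descriptions. MX1, MX2, ISG15, IFIT1 and IFIT2, named below in other lists, are also among the type I interferon effectors, so the counts overlap. Where a list holds more called genes than are named, those named are the 3 with the largest change in either direction; ATL3, SFN and GSDME are named in addition, after their values were seen.

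Among 13 tested GBP relatives and other large GTPases, 3 rose and 2 fell, with a median log2 fold change of 0.09. The antiviral GTPases MX1 (3.35 ± 0.40 to 5.26 ± 0.378 FPKM, log2 fold change 0.53, limma adjusted p = 0.0202) and MX2 (49.9 ± 2.61 to 71.5 ± 2.64 FPKM, 0.51, adjusted p = 0.00471) rose beside GBP6. MFN2, which fuses mitochondria, fell from 84.4 ± 2.74 to 61.9 ± 1.47 FPKM (-0.44, adjusted p = 0.00477), and ATL3, which fuses tubules of the endoplasmic reticulum, fell from 17.3 ± 1.10 to 13.6 ± 0.419 FPKM (-0.32, adjusted p = 0.0356). Without any single shHMGB2 library the count that rose was 1, and without any single library other than mock replicate 1 the count that fell was 1. Of 8 prenylation enzymes, 6 of which act on anchor motifs of the kind in GBP1, GBP2 and GBP5 and 2 on Rab proteins, 0 were called by limma in either direction and 1 had an unadjusted p under 0.05 (median -0.05). That was RABGGTB, a subunit of the Rab enzyme, at 60.2 ± 1.63 and 51.8 ± 5.77 FPKM (adjusted p = 0.151).

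Of 9 tested partners of GBPs in inflammasomes and cell death, 2 rose and 3 fell (median 0.11). CASP1, the inflammasome protease, rose from 44.6 ± 2.30 to 66.1 ± 2.73 FPKM (log2 fold change 0.56, limma adjusted p = 0.00352), and AIM2, a sensor of cytosolic DNA, from 2.67 ± 0.592 to 4.57 ± 0.0874 FPKM (0.62, adjusted p = 0.0298). PIM1, the kinase that holds GBP1 inactive in the cytosol, fell from 19.9 ± 0.909 to 10.8 ± 0.355 FPKM (-0.82, adjusted p = 0.000807). SFN, the 14-3-3 protein that binds the phosphorylated form of GBP1, fell from 560.0 ± 61.5 to 393 ± 12.9 FPKM (-0.50, adjusted p = 0.0171), and GSDME, a pore-forming gasdermin, from 4.88 ± 0.524 to 3.35 ± 0.0819 FPKM (-0.43, adjusted p = 0.032). CASP4, the lipopolysaccharide sensor that GBPs serve, stood at 58.0 ± 2.01 and 69.1 ± 4.51 FPKM and was not called (adjusted p = 0.0662), and GSDMD was listed at 0.0300 and 0.0267 FPKM on average. The call of AIM2 was lost without mock replicate 3 or any single shHMGB2 library (adjusted p from 0.0518 to 0.107), and the count that fell was 1 without mock replicate 2 or any single shHMGB2 library, and 2 without mock replicate 3.

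For RNF213, 18 genes of the ubiquitin coat on cytosolic bacteria were tested, of which 3 rose and 0 fell (median 0.15). UBE2L6, the conjugating enzyme for ISG15, rose from 93.0 ± 6.52 to 148 ± 12.6 FPKM (log2 fold change 0.66, limma adjusted p = 0.00538). ISG15, the ubiquitin-like modifier that RNF213 binds, went from 1040 ± 93.3 to 1330 ± 53.9 FPKM (0.36, adjusted p = 0.0418), and LGALS8, the galectin that detects broken vacuoles, from 19.2 ± 0.652 to 23.4 ± 0.882 FPKM (0.27, adjusted p = 0.04). The call of ISG15 was lost without any single library other than mock replicate 1 (adjusted p from 0.0654 to 0.138), that of LGALS8 without any single library (adjusted p from 0.0539 to 0.15), and both under median-of-ratios scaling. Of the 8 tested genes of lipid droplets and lipolysis, where RNF213 also acts, 0 were called by limma and 1 had an unadjusted p under 0.05 (median -0.03). That was SOAT1, which esterifies cholesterol, at 33.6 ± 3.59 and 39.5 ± 2.35 FPKM (adjusted p = 0.145).

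For SAMD9 and SAMD9L, 12 factors that restrict translation or cut tRNA were tested, of which 6 rose and 0 fell (median 0.34). The largest were IFIT1, which holds back foreign capped mRNA, from 72.3 ± 7.99 to 130.0 ± 8.08 FPKM (log2 fold change 0.84, limma adjusted p = 0.0031), and its binding partner IFIT2 from 22.0 ± 1.6 to 39.1 ± 1.31 FPKM (0.80, adjusted p = 0.00134). SHFL, a brake on viral frameshifting, rose from 27.4 ± 1.52 to 40.1 ± 1.5 FPKM (0.53, adjusted p = 0.00454). Without mock replicate 2 or any single shHMGB2 library, 3 of the list rose. In the family of SAM domain proteins, 1 of 7 tested rose and 0 fell (median 0.04); it was SAMHD1, which breaks down nucleotides needed by viruses, from 34.4 ± 1.52 to 58.3 ± 1.10 FPKM (0.74, adjusted p = 0.000807).

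Interferon gamma is the classical inducer of GBPs, and 16 genes of its signalling path were tested, of which 4 rose and 1 fell (median 0.11). STAT2, a transcription factor of the type I response, rose from 31.8 ± 2.88 to 49.6 ± 3.28 FPKM (log2 fold change 0.63, limma adjusted p = 0.00644). SOCS1, the feedback inhibitor, rose from 3.39 ± 0.446 to 5.60 ± 0.761 FPKM (0.59, adjusted p = 0.0284), and JAK1, the receptor kinase, from 15.2 ± 1.17 to 19.8 ± 0.168 FPKM (0.36, adjusted p = 0.0255). The receptor chain IFNGR2 fell from 44.6 ± 1.21 to 36.3 ± 1.61 FPKM (-0.29, adjusted p = 0.029). JAK1 and IFNGR2 were named after their values were seen. IRF1, the factor that drives GBP transcription after interferon gamma, stood at 15.4 ± 1.55 and 16.6 ± 0.47 FPKM (adjusted p = 0.393), and IRF9 at 26.0 ± 2.19 and 30.0 ± 1.40 FPKM (adjusted p = 0.14). Without mock replicate 2, shHMGB2 replicate 1 or shHMGB2 replicate 2 the count that rose was 2, and the count that fell was 0 without any single library other than mock replicate 1.

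Of 19 tested genes induced by interferon gamma other than GBPs, 8 rose and 0 fell (median 0.30). APOL2, an apolipoprotein L gene, rose from 10.1 ± 0.0513 to 18.9 ± 1.29 FPKM (log2 fold change 0.85, limma adjusted p = 0.000994), CXCL10, a T cell chemokine, from 2.15 ± 0.416 to 3.89 ± 0.301 FPKM (0.64, adjusted p = 0.0195), and APOL6 from 1.67 ± 0.259 to 3.12 ± 0.0985 FPKM (0.63, adjusted p = 0.0125). The count was 9 without mock replicate 1, 3 without mock replicate 2, 4 without mock replicate 3, 1 without shHMGB2 replicate 1, 2 without shHMGB2 replicate 2 and 1 without shHMGB2 replicate 3. Among 39 tested type I interferon effectors, 31 rose and 1 fell (median 0.53). The 3 largest were RSAD2, which makes a chain-ending nucleotide, from 13.7 ± 0.236 to 30.2 ± 0.525 FPKM (1.08, adjusted p = 0.000266), XAF1 (0.99, adjusted p = 0.00289) and TRIM22 (0.90, adjusted p = 0.000801). The one that fell was IRF7, a master regulator of interferon genes, at 2.19 ± 0.376 and 1.18 ± 0.236 FPKM (-0.55, adjusted p = 0.0483), named after its value was seen. Across the fits that left out 1 library, 23 to 32 of this list rose, and the count that fell was 0 without mock replicate 1, mock replicate 2 or any single shHMGB2 library. Interferon genes themselves were low: IFNB1 had means of 0.823 and 1.02 FPKM, and IFNE, at 1.54 and 2.14 FPKM, was the 1 tested and was not called (adjusted p = 0.13). IFNG was not analysed here.

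**Figure D4:**
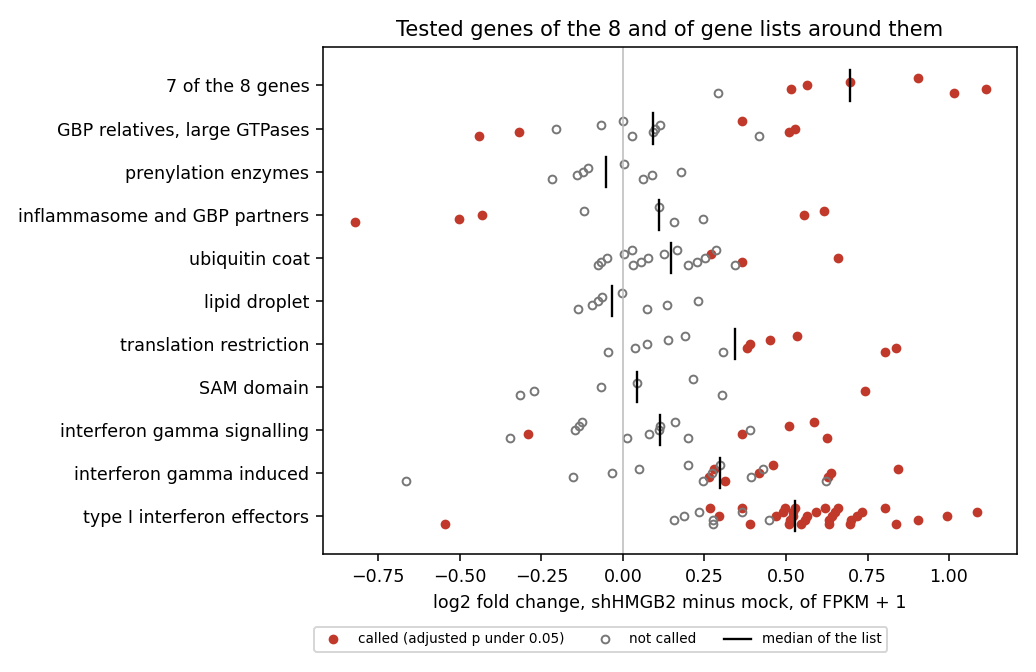
Log2 fold change (shHMGB2 minus mock, of FPKM + 1) of each tested gene among the 8 and in the 10 lists tied to them, filled where the adjusted p was under 0.05, with a black line at the median of each. The median is 0.70 for the 7 tested genes, 0.53 for type I interferon effectors and 0.30 for genes induced by interferon gamma, and it lies at 0.15 or below for the ubiquitin coat, prenylation, lipid droplet, large GTPase, SAM domain, inflammasome and interferon gamma signalling lists.

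Markers of other cell types were near the floor, apart from 1 gene in each list. Summed over 6 leukocyte markers with a row, mock libraries stood at 7.07 to 7.91 FPKM and shHMGB2 libraries at 4.64 to 5.16 FPKM, nearly all of it CD68, a lysosomal protein gene, which fell (log2 fold change -0.61, limma adjusted p = 0.00454). The 6 endothelial markers summed to 1.88 to 2.58 FPKM in mock and 2.39 to 2.81 FPKM in shHMGB2, and the 7 fibroblast markers to 2.91 to 3.70 and 3.99 to 4.41 FPKM, mostly ERG and LUM, neither called. Of the 10 squamous markers, 1 rose (SOX2) and 3 fell (KRT14, KRT6A and KRT17), and their sum was 7690 to 7970 FPKM in mock and 6680 to 7410 FPKM in shHMGB2. The call of SOX2 was lost without mock replicate 2 or any single shHMGB2 library (adjusted p from 0.0609 to 0.108, limma). The part of these shifts in the values of the 8 genes was not tested.

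For each of the 7 tested genes, 9306 genes that averaged 5 FPKM or more were ranked by how near their profile over the 6 libraries was, as the root mean square difference in log2(FPKM + 1) after the mock mean was subtracted. This is a description over 6 libraries of 1 contrast. Nearest to GBP1 were CFL2 (0.091), HMGA2 (0.11) and RSAD2 (0.112); nearest to GBP2 were TDRD7 (0.031), TRIM14 (0.036) and IL6R (0.045). GBP3 was followed most closely by CAVIN2 (0.075), LPGAT1 (0.086) and GNPTAB (0.09), and GBP5 by SMURF2 (0.026), LDAH (0.029) and GIT2 (0.032).

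SAMD9 had OSTM1 (0.057), NEDD4 (0.06) and FNDC3A (0.073) as its nearest genes, and SAMD9L had TNRC6A (0.10), XAF1 (0.124) and CFL2 (0.153), so no gene was named for both paralogs. RNF213 was matched most closely by FAT2 (0.035), an atypical cadherin gene that stood at 27.8, 35.1 and 40.3 FPKM in mock and at 83.1, 61.6 and 57.2 FPKM in shHMGB2 replicates 1, 2 and 3. FAT2 was picked for its near profile, so its order of libraries within each group, that of RNF213, largely follows from the choice. Its transcript has 14534 bases, and the part of length in this nearness was not tested. The next nearest to RNF213 were FAM230C-2, a numbered copy of a repeated gene (0.098), and ANKRD52 (0.111), with 8688 bases.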

How the data were processed

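Per the submitters' processing notes, Bowtie2 2.2.5, RSEM 1.2.12 and the build hg38 were used, with no role or order given. The authors deposited 1 table with FPKM per library to 2 decimals, and group values (a normalized signal), log2 fold changes, p-values and adjusted p-values with no method stated in the sources used here. No counts are held, so no count test was run.

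Log2(FPKM + 1) was tested in the 13409 genes that averaged 1 FPKM or more over the 6 libraries with limma 3.58.1 (R 4.3.3; trended empirical Bayes, no covariate, two-sided, Benjamini-Hochberg adjustment over all genes tested); called means an adjusted p under 0.05. The procedure was tested on simulated data. Median deviations, ratios, profiles and sequence searches used Python 3.11.15 with pandas 2.3.3 and numpy 2.4.6.

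The 8 genes and the 15 lists were chosen with earlier results of these data known. Named are the 8 genes, HMGB2, in each list the 3 called genes with the largest absolute log2 fold change (or, with none called, the smallest p), IRF1, IRF9 and SOCS1, called flanking genes, and the 3 nearest profiles of each gene. In all, 18 alternatives were fixed and 1 was added. Protein sequences were not used here, and 1 gene that the rule names is not reported here.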

Additional observations from a re-analysis of the deposited data

How the results depend on the processing

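Of the 7 tested genes and the others named by the stated rule, 0 changed direction under the alternatives run. GBP4 was not part of this check. Of the 8 genes, 6 were called with all 6 libraries and 3 to 6 with 1 library left out: 5 without mock replicate 1, 3 without mock replicate 2, 6 without mock replicate 3, 3 without shHMGB2 replicate 1, 3 without shHMGB2 replicate 2 and 4 without shHMGB2 replicate 3. GBP1, GBP2 and SAMD9L were called in each of these fits. The median log2 fold change of the 7 tested genes ran from 0.51 to 0.82 in them, beside 0.70. Over all genes, 97 to 449 were called higher and 193 to 446 lower with 1 library left out, beside 442 and 463.

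With no minimum on FPKM except above 0, 3 of the 8 were called, and 167 genes were higher and 245 lower. At an adjusted p under 0.01, 3 of the 8 were called, and 78 genes were higher and 164 lower. With limma array weights 2436 genes were higher and 1758 lower. With the length trend removed, an alternative chosen after seeing the data, 676 were higher and 537 lower. Median-of-ratios scaling gave 349 higher and 571 lower. The cause of these shifts was not tested.

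Deviations from the group means correlated at -0.012, -0.038 and -0.096 between same-numbered libraries, and at -0.05 to 0.094 between the others. No label says whether same-numbered libraries were made together, and correlations of deviations in groups of 3 cannot settle it. With the replicate number as a block, 4 of the 8 were called, 138 genes were higher and 234 lower. Read counts per library are not known, and the 2 decimals of FPKM limit the precision of GBP4.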
